A study of Mus musculus with 16 samples.

Results

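The junction between a motor nerve and a muscle fibre is built around a dense patch of nicotinic acetylcholine receptors. Each receptor is a ring of subunits: Chrna1, Chrnb1 and Chrnd code for subunits that the receptor carries throughout life, Chrng codes for the fetal subunit and Chrne for the adult subunit that replaces it. MuSK is the receptor tyrosine kinase that gathers these receptors under the nerve ending after the nerve releases agrin. When a fibre loses its nerve, muscle nuclei away from the junction are known to switch these genes, other than Chrne, on again. With them come Ncam1, a cell adhesion molecule, Runx1, a transcription factor, and Myog, the myogenic factor myogenin. These 9 genes, Chrna1, Chrnb1, Chrnd, Chrne, Chrng, Musk, Ncam1, Runx1 and Myog, are described here in skeletal muscle of mice. They were chosen by name, and all 9 of 9 had rows among the 23235 gene names of the mRNA table.

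RNA was sequenced from skeletal muscle of 16 male C57BL/6J mice in 4 groups of 4. The control mice had a normal diet, the HFD mice a high-fat diet (60% fat), the HFD + RSV mice the same diet with resveratrol, a plant polyphenol, and the HFD + metformin mice the same diet with metformin, a glucose-lowering drug. The mice were 6 weeks old when bought, the high-fat diet had run for 8 weeks before the drugs began, and the drugs were given for 6 weeks. The muscle that was taken is not named, and the mouse labels of the HFD group all begin with the same number, and anything tied to that number and the diet itself cannot be told apart.

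Counts summed per mouse over the mRNA and lncRNA tables ranged from 20281801 to 34021101 (median 26230158). Levels between mice are given in CPM, the count relative to the library's total in the mRNA table after TMM scaling, and levels between genes in FPKM, which divides by transcript length. One label protocol names retina as the tissue, whereas 8 myofibre markers summed to 165954 to 319682 CPM per mouse. By group that was 165954 to 296719 in control, 253550 to 319682 in HFD, 247412 to 290195 in HFD + RSV and 175985 to 298319 in HFD + metformin. Fast fibre genes summed to 60048.5 to 105343 CPM in control, 102906 to 111298 in HFD, 93357 to 104531 in HFD + RSV and 60981 to 117236 in HFD + metformin. Genes of slow fibres varied widely: 7 of them summed to 93.6 to 2313 CPM in control mice, 97.9 to 270.2 in HFD, 116 to 1371 in HFD + RSV and 199.7 to 505 in HFD + metformin. The 7 adipocyte markers summed to 1043 to 4716 CPM in control, 208 to 1034 in HFD, 301 to 1209 in HFD + RSV and 211 to 4381 in HFD + metformin. Control mouse 3 and HFD + metformin mouse 3 were the highest in adipocyte markers and the lowest in Acta1, the actin of the myofibre.

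Muscle genes of the junction are controlled through short promoter elements, of which the E-box, bound by myogenic factors such as myogenin, and the N-box, a site known for restricting Chrne to junctional nuclei, are the best known. The stretch from 160 to 31 bases before the RefSeq start is shown for the adult and fetal subunit genes, which replace each other, and for Chrna1 and Musk, so that the elements can be compared. Capitals mark the E-box form CAGCTG and the N-box CCGGAA, each searched on both strands.
Chrne: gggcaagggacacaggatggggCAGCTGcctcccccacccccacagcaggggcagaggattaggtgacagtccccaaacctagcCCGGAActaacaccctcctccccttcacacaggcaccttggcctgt
Chrng: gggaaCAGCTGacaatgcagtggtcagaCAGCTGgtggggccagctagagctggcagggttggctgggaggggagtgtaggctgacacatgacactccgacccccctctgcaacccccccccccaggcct
Chrna1: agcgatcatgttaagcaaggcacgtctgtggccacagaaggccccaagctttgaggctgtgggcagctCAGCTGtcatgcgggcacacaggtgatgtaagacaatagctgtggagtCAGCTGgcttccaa
Musk: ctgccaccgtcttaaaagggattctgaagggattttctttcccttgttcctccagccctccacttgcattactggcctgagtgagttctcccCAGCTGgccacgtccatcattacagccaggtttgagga

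The sequences are those of RefSeq on GRCm38.p6: chr11:70619225-70619354 on the minus strand for Chrne, chr1:87205651-87205780 on the plus strand for Chrng, chr2:73580369-73580498 on the minus strand for Chrna1 and chr4:58285802-58285931 on the plus strand for Musk. None of the 4 stretches overlapped an exon of GENCODE M21, and the one before Chrng lay in an intron of the transcript Chrng-202. Over the whole window of 250 bases before to 50 after the start, Chrne held CAGCTG at 138 and CCGGAA at 76 bases before the start. Chrng held CAGCTG at 155 and at 132, Chrna1 at 92 and at 44, and Musk at 68. CCGGAA was not found in the windows of Chrng, Chrna1 or Musk. Windows were matched for 7 of the 9 genes, all but Chrnd and Ncam1. All 7 held CANNTG, the general E-box that includes CAGCTG, as did 72.3% of all 32851 promoter windows. CAGCTG was in 4 of the 7 and in 16.3% of all windows. CCGGAA was in Chrne and in Runx1, and in 14.9% of all windows. TGTGGT, the core bound by Runx factors, was in Runx1 alone of the 7 and in 16.8% of all windows. These are matches of letters and no evidence of binding.

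Per length, Musk stood highest of the 9 genes and Chrng lowest. FPKM over the 16 mice was 11.6 ± 4.26 (SD, n = 16) for Musk, 7.89 ± 1.02 for Chrnb1, 5.65 ± 2.00 for Chrne, 2.76 ± 0.611 for Ncam1, 2.42 ± 1.80 for Myog, 1.83 ± 0.685 for Chrna1, 1.5 ± 0.486 for Runx1, 0.605 ± 0.249 for Chrnd and 0.0627 ± 0.121 for Chrng. The steps from Chrne to Ncam1 and from Chrnd to Chrng held in 16 of 16 mice, and those from Chrnb1 to Chrne and from Runx1 to Chrnd in 15 of 16. Musk exceeded Chrnb1 in 13, Ncam1 exceeded Myog in 12, Chrna1 exceeded Runx1 in 12 and Myog exceeded Chrna1 in 9 of 16 mice. The distance between the neighbours of these 4 pairs was smaller than the larger SD of the pair.

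None of the 9 genes passed the test in any comparison of diets or drugs. Genes were called at a Benjamini-Hochberg adjusted p under 0.05 in edgeR's quasi-likelihood test across all 15364 genes that passed the filter on low counts, with the 16 mice in a shared fit. The filter kept 8 members, and Chrng was too low. Of the 48 tests of a member, 0 were called, with adjusted p-values of 0.238 and above, and 5 reached an unadjusted p under 0.05. Those 5 were 1 of 8 members higher for HFD + RSV against HFD (2.82% of all genes were), 2 higher for HFD + RSV against control (7.80%), 1 higher for HFD + RSV against HFD + metformin (1.67%) and 1 lower for HFD + metformin against control (4.15%). DESeq2 also called 0 members in each comparison. In a test of the 4 groups together, edgeR called 0 members, with adjusted p-values from 0.365 for Chrne to 0.827 for Chrnd, and 0.117% of all genes.

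The same test called 374 genes for HFD against control, 2.43% of those tested, of which 203 (1.32%) were higher and 171 (1.11%) lower in HFD. That count depended on a few mice: it was 16 without control mouse 2, 29 without control mouse 3 and 773 without control mouse 1. Of the genes called, 54.3% were higher, against 43.0% with no scaling factor, 63.9% with no filter, and 40.3% and 42.5% with limma on log2 FPKM. The share of genes called was 0.00% for HFD + RSV against HFD, 0.0130% for HFD + metformin against HFD, 0.00651% for HFD + RSV against control, 0.00% for HFD + metformin against control and 0.00% for HFD + RSV against HFD + metformin. The 3 comparisons with HFD share its 4 mice, and the 3 with control share the control mice. At an unadjusted p under 0.05 the shares of all genes were 24.2%, 4.72%, 8.02%, 15.8%, 9.50% and 4.68% in that order.

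**Figure D1:**
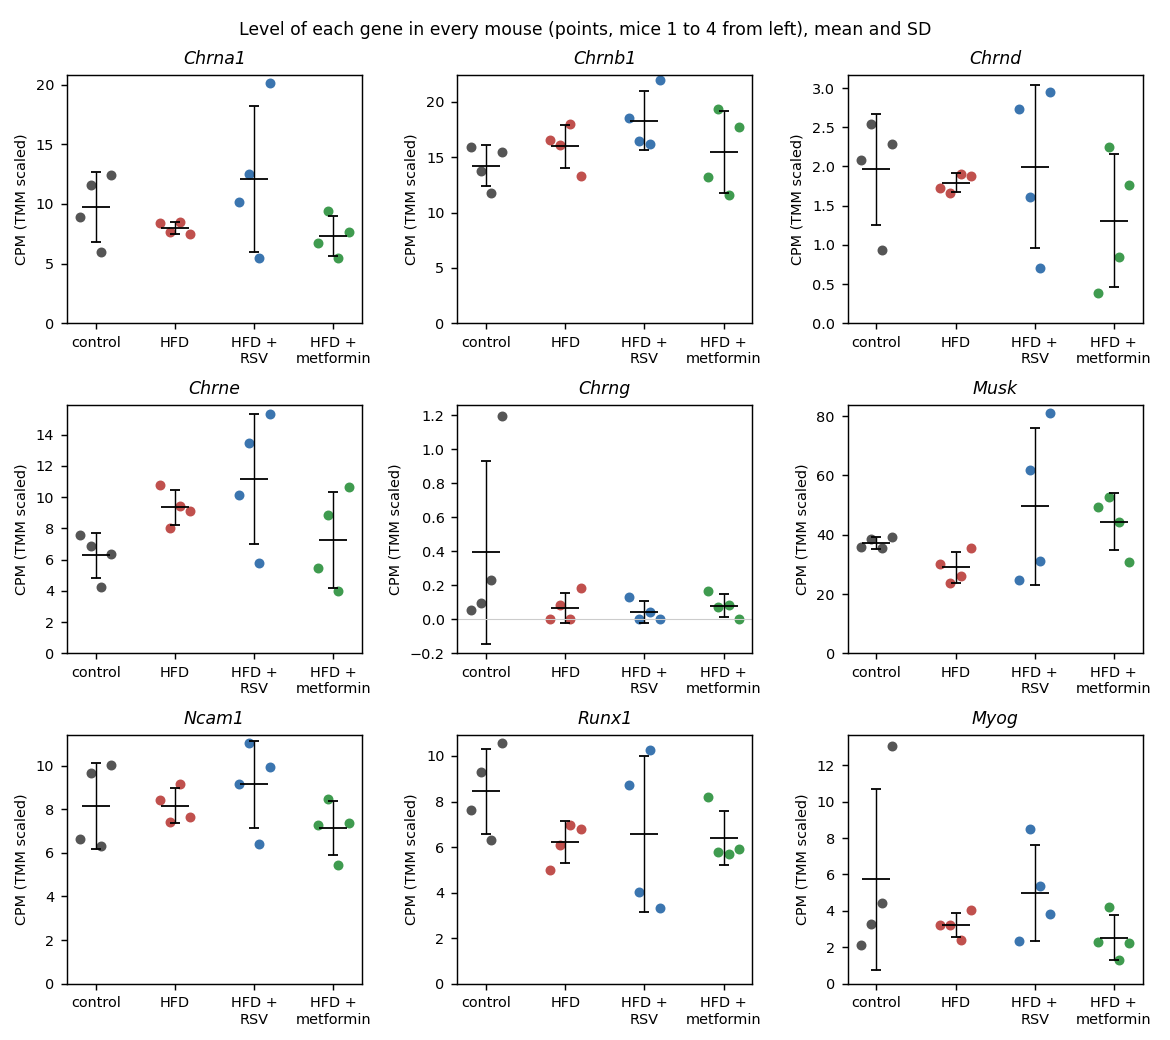
CPM on a linear axis for each of the 9 genes in each of 16 mice. Points are mice 1 to 4 of a group from left to right, the bar is the group mean and the whisker its SD. The HFD + RSV mice spread widely for Chrna1, Chrne, Musk and Runx1. The HFD mice lie closest together for Chrna1, Chrne and Runx1 but not for Musk, and Chrng and Myog are highest in control mouse 4.

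**Figure D2:**
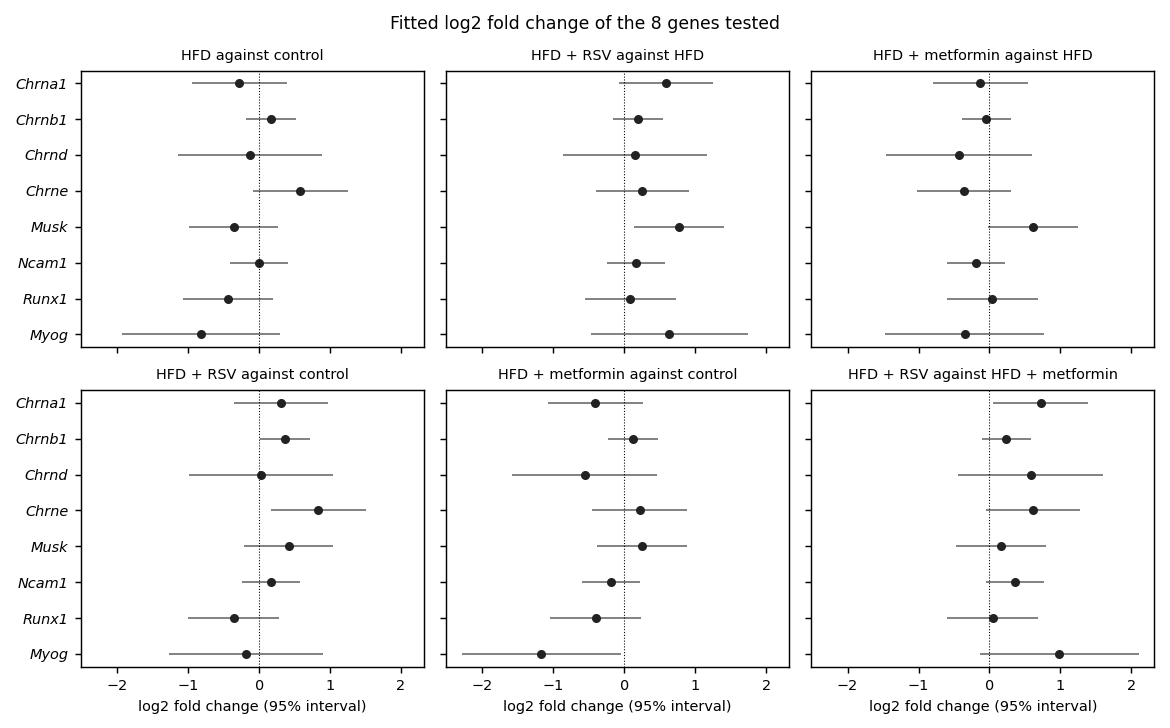
Log2 fold change of the 8 genes tested in the 6 comparisons, with 95% intervals from the edgeR fit. Of the 48 intervals, 43 hold 0.

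Chrne, the adult subunit, came closest to a difference with diet. Chrne stood at 7.58, 6.885, 4.26 and 6.34 CPM in control mice 1 to 4 and at 10.8, 8.03, 9.46 and 9.14 CPM in the HFD mice. The groups did not overlap, and all 4 HFD mice were higher, as was so for 8.83% of all genes, while groups were apart in either direction for 18.3%. Bulk RNA cannot tell fewer cells of a type, or fewer junctional nuclei, from less RNA per cell. The log2 fold change for HFD against control was 0.58 ± 0.31 (SE) with an adjusted p of 0.271, and the exact two-sided permutation test on log2 CPM gave p = 0.0286, the smallest that 4 mice against 4 allow. In the 8 fits that left out 1 mouse the fold change was 0.43 to 0.68 (adjusted p 0.229 to 0.535). The lowest was that without control mouse 3. Without control mouse 3 and HFD + metformin mouse 3, the libraries highest in adipocyte genes, it was 0.43 (adjusted p = 0.427). In HFD + RSV mice Chrne was 10.1, 13.4, 5.77 and 15.3 CPM, so that mouse 3 fell among the control mice and mice 2 and 4 lay above all HFD mice. The log2 fold change for HFD + RSV against control was 0.83 ± 0.31, with an unadjusted p of 0.0179 and an adjusted p of 0.238. HFD + metformin mice had 5.44, 8.88, 4.01 and 10.7 CPM and overlapped the control and HFD mice. Against HFD the log2 differences were 0.26 ± 0.31 with resveratrol and -0.36 ± 0.31 with metformin.

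Chrng, the fetal subunit, was near the limit of detection except in 1 animal. Its counts were 1, 3, 6 and 23 in control mice 1 to 4, 0, 2, 0 and 4 in HFD, 3, 0, 1 and 0 in HFD + RSV, and 3, 2, 2 and 0 in HFD + metformin. The 5 mice at 0 allow a level of up to 0.108 to 0.134 CPM, the level of 3 counts. Control mouse 4 alone reached 1.2 CPM. Group totals were 33 counts in control, 6 in HFD, 4 in HFD + RSV and 7 in HFD + metformin, and 23 of the 33 came from that mouse. Without the filter on low counts, the adjusted p against control was 0.246 for HFD, 0.330 for HFD + RSV and 0.621 for HFD + metformin.

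The share of Chrng in the sum of Chrng and Chrne FPKM sets the RNA of the fetal subunit against that of the adult one. It says nothing on receptor protein, and it rests on at most 6 Chrng counts in 15 of the 16 mice. The share was 4.32% ± 4.46 (SD, n = 4) in control, 0.356% ± 0.441 in HFD, 0.294% ± 0.380 in HFD + RSV and 0.655% ± 0.588 in HFD + metformin. It was 9.65% in control mouse 4 and 6.37% in control mouse 3, and at most 1.36% in the other 14 mice. As a share of counts, Chrng made up 15.9% in control mouse 4 (95% exact binomial interval 10.3% to 22.8%, which covers counting error only) and 5.22% in control mouse 3 (1.94% to 11.0%). Over the 6 comparisons the exact permutation p was 0.0857 or more, with adjusted values of 0.343 and above.

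Chrna1 codes for the subunit that binds acetylcholine. Chrna1 stood at 8.93, 11.6, 5.94 and 12.4 CPM in control mice, 8.395, 7.69, 8.49 and 7.49 in HFD, 10.2, 12.5, 5.50 and 20.1 in HFD + RSV, and 6.71, 9.40, 5.45 and 7.69 in HFD + metformin. HFD + RSV mouse 4 was far above the other 15 mice, and HFD + RSV mouse 3 was among the lowest. The log2 fold change for HFD + RSV against HFD was 0.59 ± 0.31 (adjusted p = 0.999), and it was 0.23 without HFD + RSV mouse 4. HFD + RSV against HFD + metformin gave 0.72 ± 0.31 with an unadjusted p of 0.0359 and an adjusted p of 0.962, and 0.36 without HFD + RSV mouse 4. The value for HFD against control was -0.28 ± 0.31.

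Chrnb1 varied least among the members. Its CPM was 15.9, 13.8, 11.8 and 15.5 in control, 16.5, 16.1, 18.0 and 13.3 in HFD, 18.6, 16.5, 16.2 and 22.0 in HFD + RSV, and 13.2, 19.4, 11.6 and 17.8 in HFD + metformin. All HFD + RSV mice lay above all control mice, as was so for 5.44% of genes, and for 11.3% in either direction. Chrne and Chrnb1 were the only such members: in the other 4 comparisons the groups of all 8 members tested overlapped, and those of 4.20% of all genes for HFD + RSV against HFD, 3.72% for HFD + metformin against HFD, 3.53% for HFD + metformin against control and 1.56% for HFD + RSV against HFD + metformin did not. This difference was 0.36 ± 0.16 on the log2 scale, with an unadjusted p of 0.0425, an adjusted p of 0.302 and an exact permutation p of 0.0286. HFD against control gave 0.17 ± 0.16, with a 95% interval from -0.18 to 0.52.

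Chrnd was the lowest of the subunits that both forms of the receptor carry, at 7 to 79 counts per mouse. Its CPM was 2.08, 2.54, 0.938 and 2.29 in control, 1.73, 1.66, 1.90 and 1.88 in HFD, 2.73, 1.60, 0.710 and 2.95 in HFD + RSV, and 0.385, 2.25, 0.845 and 1.76 in HFD + metformin. The HFD mice were almost alike, while each of the other groups held at least 1 mouse under 1 CPM. The log2 fold changes ranged from -0.56 ± 0.48 for HFD + metformin against control to 0.58 ± 0.48 for HFD + RSV against HFD + metformin. Each of the 6 intervals (95%) reaches beyond 1 or -1, so that a change of that size is not excluded.

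Levels of the 4 subunit genes that passed the filter were compared from mouse to mouse within groups, as a description with no test, since the pairs were chosen after the values had been seen. With the group means removed, Pearson's r of log2 CPM over the 16 mice lay between 0.671 for Chrna1 with Chrnb1 and 0.825 for Chrna1 with Chrne, and Spearman's rank coefficient between 0.682 and 0.812. Without the 2 mice farthest from the median of the first gene, r was 0.642 to 0.730. Musk with the subunits gave r of 0.0610 to 0.580 and rank coefficients of 0.05 to 0.518, with r of -0.00443 to 0.254 without those 2 mice. All points come from the same 16 libraries, and many other genes varied alike: 2.68% of all genes had an r with Chrna1 at least as high as its lowest with another subunit, 7.05% with Chrnb1, 1.71% with Chrnd and 1.76% with Chrne.

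HFD + RSV mouse 4 was the highest of the 16 mice for Chrna1, Chrnb1, Chrnd, Chrne and Musk, and the lowest for Runx1. HFD + metformin mouse 3 was the lowest for Chrna1, Chrnb1, Chrne, Ncam1 and Myog. The first had 1371 CPM of slow fibre genes, more than any other mouse on the high-fat diet, and 186 CPM of Schwann cell genes. The second had 4381 CPM of adipocyte genes and 60981 CPM of fast fibre genes, where the other 3 mice of its group had 96360 to 117236. The part of these genes in the members' levels was not tested. Without control mouse 3 and HFD + metformin mouse 3 the number of members called was 0 in each comparison.

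**Figure D3:**
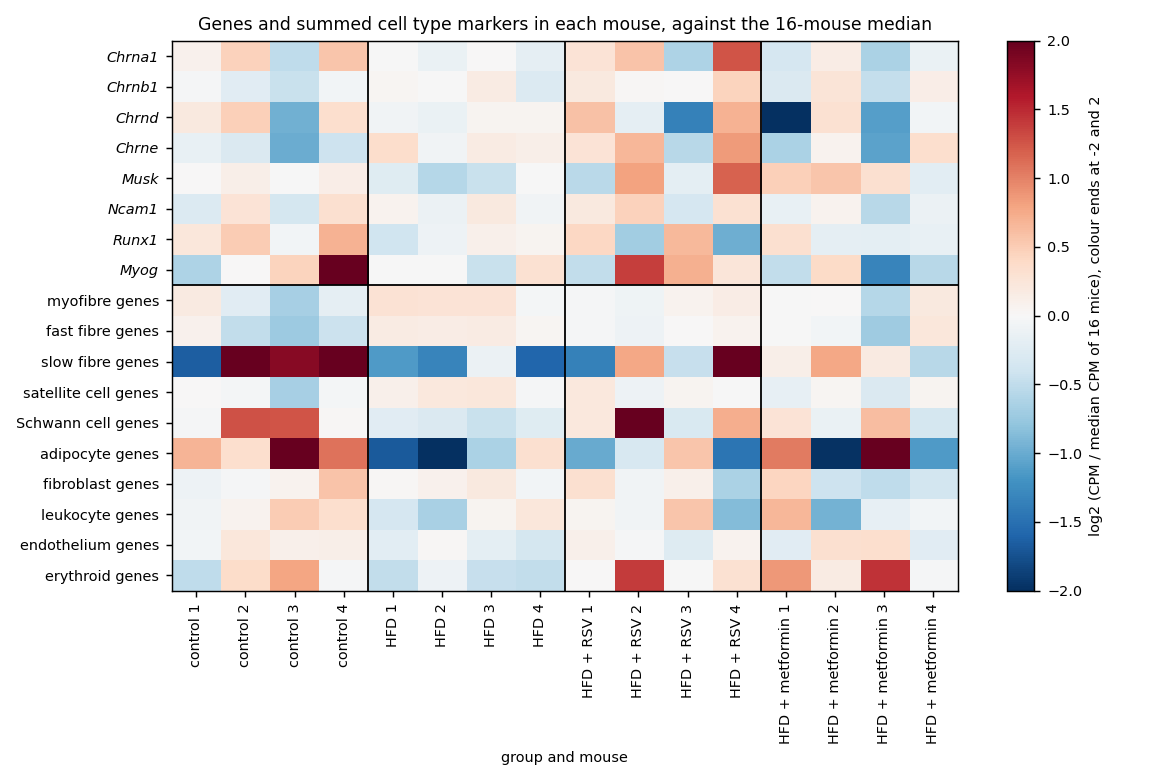
Log2 of CPM against the median of the 16 mice, for the 8 genes tested (top) and for the summed CPM of 10 marker lists (bottom). Columns are mice by group and colours end at -2 and 2. HFD + RSV mouse 4 and HFD + metformin mouse 3 run through the receptor genes in opposite directions, and control mouse 4 stands out for Myog.

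Musk had the highest counts of the members, at 550 to 1810 per mouse. Its CPM was 35.7, 38.6, 35.4 and 39.2 in control, 30.3, 23.9, 26.2 and 35.55 in HFD, 24.6, 61.9, 31.0 and 80.9 in HFD + RSV, and 49.4, 52.6, 44.4 and 30.9 in HFD + metformin. The control mice were close together, 3 of 4 HFD mice lay below all of them, and HFD + RSV was split into 2 mice high and 2 low. The log2 fold change for HFD + RSV against HFD was 0.78 ± 0.30, with an unadjusted p of 0.0200 and an adjusted p of 0.999, and it was 0.43 without HFD + RSV mouse 4. For HFD + metformin against HFD it was 0.61 ± 0.30 (adjusted p = 0.626), and 3 of the 4 metformin mice lay above all HFD mice. HFD against control gave -0.36 ± 0.30, with a 95% interval of -0.99 to 0.27. The 2 HFD + RSV mice with high Musk also had the most Schwann cell marker RNA of their group, with 477 CPM in mouse 2 and 186 CPM in mouse 4 against 130 and 91.0 in mice 1 and 3. Of these 2, mouse 2 had more Schwann cell marker RNA but less Musk. In control mice 1 to 4 the Schwann cell markers summed to 110, 270, 269 and 114 CPM. Musk did not follow that order, being highest in mouse 4 and lowest in mouse 3. The part of those cells in the Musk level was not tested.

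The Musk count was divided among 8 transcripts, and the division varied widely from mouse to mouse. Musk-207 took 38.5% of the count on average and ranged from 0% to 64.7%. It was at 0 counts in HFD mouse 3 and in HFD + metformin mouse 1. In HFD mouse 3 Musk-208 held 51.2% of the count, and in HFD + metformin mouse 1 Musk-202 held 56.8% and Musk-203 31.1%. The authors' program StringTie assigns fragments to transcripts by estimation, so that transcripts sharing most of their sequence can trade fragments. The sum per gene does not depend on that division.

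**Figure D4:**
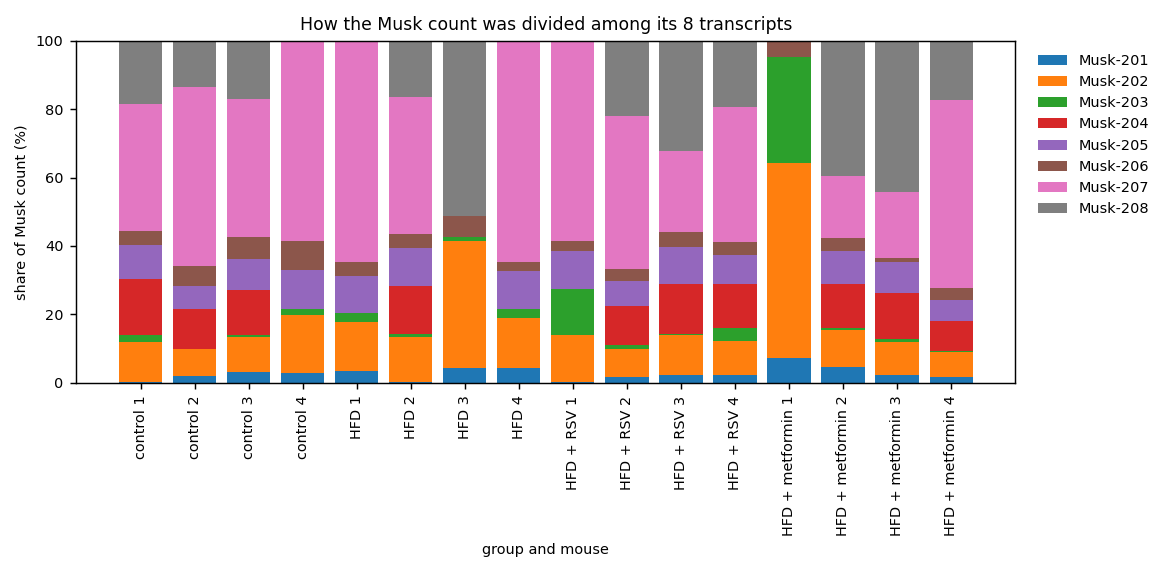
Share of the Musk count assigned to each of its 8 transcripts in each mouse, in percent. Bars add up to 100, and Musk-207 is absent from HFD mouse 3 and HFD + metformin mouse 1.

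At the level of transcripts, 26 of the 37 that belong to members passed the filter. edgeR called 0 of them among 44573 transcripts in any of the 6 comparisons, where the shares of all transcripts called were 0.0157%, 0.00%, 0.00449%, 0.00449%, 0.00224% and 0.00673% in the order used above. An unadjusted p under 0.05 was reached in 12 of 156 tests. Of the 26 transcripts these were 3 for HFD against control (13.1% of all transcripts), 0 for HFD + RSV against HFD (5.02%), 1 for HFD + metformin against HFD (6.07%), 2 for HFD + RSV against control (9.26%), 3 for HFD + metformin against control (6.69%) and 3 for HFD + RSV against HFD + metformin (4.79%). Chrne-202, which held 63.2% of the Chrne count on average, had 60, 134, 64 and 82 counts in control, 147, 175, 188 and 149 in HFD, 130, 186, 107 and 229 in HFD + RSV, and 51, 69, 63 and 155 in HFD + metformin. Its log2 fold change for HFD against control was 1.013 ± 0.30, with an unadjusted p of 0.00436 and an adjusted p of 0.196. It was -1.09 ± 0.30 for HFD + metformin against HFD (unadjusted p = 0.00263, adjusted p = 0.808), 1.016 ± 0.30 for HFD + RSV against control (0.00428 and 0.411) and 1.09 ± 0.30 for HFD + RSV against HFD + metformin (0.00258 and 1), and 0.0029 ± 0.29 for HFD + RSV against HFD. Chrne-201, the other coding form, ranged from 1.04% to 55.3% of the Chrne count. Its log2 fold change was -0.78 ± 0.93 for HFD against control and 1.33 ± 0.94 for HFD + metformin against HFD. The signs were opposite to those of Chrne-202, as for HFD + RSV against HFD + metformin (-0.19 ± 0.91). They were alike for HFD + RSV against control (0.36 ± 0.92) and against HFD (1.14 ± 0.94). These forms can trade fragments, as those of Musk can. The gene sum gave 0.58 for HFD against control and -0.36 for HFD + metformin against HFD. The smallest adjusted p, 0.180, belonged to Chrnb1-204, a form with a retained intron, at 0.76 ± 0.21 for HFD against control. Runx1-202 ranged from 0% to 69.5% of the Runx1 count and Ncam1-201 from 19.4% to 81.5% of the Ncam1 count.

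Ncam1, the adhesion molecule that spreads over denervated fibres and also marks satellite cells and Schwann cells, was level across the groups. Its CPM was 6.63, 9.65, 6.29 and 10.03 in control, 8.44, 7.40, 9.15 and 7.625 in HFD, 9.17, 11.1, 6.39 and 9.925 in HFD + RSV, and 7.26, 8.465, 5.45 and 7.37 in HFD + metformin. All groups overlapped. HFD against control gave -0.00073 ± 0.19 on the log2 scale with a 95% interval of -0.41 to 0.41, and the largest of the 6 differences was 0.36 ± 0.19 for HFD + RSV against HFD + metformin (adjusted p = 0.962). The 6 satellite cell markers summed to 30.3 to 56.4 CPM over all mice. The highest Ncam1 level, in HFD + RSV mouse 2, went with the highest sum of Schwann cell markers. In control the highest Ncam1 level, in mouse 4, went with 114 CPM of these markers, and the lowest, in mouse 3, with 269 CPM. The link of Ncam1 to these markers was not tested.

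Runx1 was 7.64, 9.30, 6.29 and 10.5 CPM in control, 4.98, 6.11, 6.98 and 6.80 in HFD, 8.72, 4.03, 10.2 and 3.31 in HFD + RSV, and 8.20, 5.77, 5.70 and 5.93 in HFD + metformin. HFD + RSV was split again, but the 2 mice low in Runx1 were mice 2 and 4, which were high in Musk. The log2 fold change against control was -0.44 ± 0.30 for HFD, -0.36 ± 0.30 for HFD + RSV and -0.40 ± 0.30 for HFD + metformin, with adjusted p-values of 0.379, 0.575 and 0.712. These 3 values share the control mice. Ncam1 and Runx1 are overlapped by genes on the opposite strand (Gm11149 and Gm26626) and by lncRNA rows, with 40 to 115 counts per mouse in the span of Ncam1 and 38 to 137 in that of Runx1. The library kit is not known to mark strand, so reads shared with these genes cannot be told apart.

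Myog was 2.13, 3.28, 4.46 and 13.05 CPM in control, 3.25, 3.24, 2.39 and 4.04 in HFD, 2.33, 8.50, 5.37 and 3.845 in HFD + RSV, and 2.31, 4.23, 1.31 and 2.23 in HFD + metformin. Control mouse 4 was the highest of all. The size of all 3 differences from control rested on that mouse. The log2 fold change for HFD + metformin against control was -1.17 ± 0.52 (unadjusted p = 0.0416, adjusted p = 0.505), and -0.39 without control mouse 4. For HFD against control it was -0.82 ± 0.52 (adjusted p = 0.345), and -0.034 without that mouse. For HFD + RSV against control it was -0.19 ± 0.51, and 0.60 without that mouse. The HFD + metformin value was the only member result with an unadjusted p under 0.05 and an absolute log2 fold change above 1. In that comparison 1.63% of all genes met both limits (1.20% lower). The study's methods give a P under 0.05 with that fold change. They mention control of the false discovery rate and do not say that P is unadjusted, and the study reports no metformin group. With an unadjusted p this is named the study's criterion below. By that criterion 0 members were called in the other 5 comparisons, where 4.94% of genes met it for HFD against control, 1.08% for HFD + RSV against HFD, 1.76% for HFD + metformin against HFD, 2.72% for HFD + RSV against control and 0.970% for HFD + RSV against HFD + metformin.

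Control mouse 4 was the highest of the 16 mice for Myog, Chrng and Runx1, 3 genes known to respond to loss of the nerve. It was also the highest for Myh3, the embryonic myosin, at 16.4 CPM against 0.359 to 5.08 in the other mice. Ankrd1, a stretch and injury response gene, stood at 83.2 CPM in this mouse and 105 CPM in HFD + RSV mouse 3, against 0.564 to 31.7 in the others. Myh3 and Ankrd1 were singled out after their values had been seen, from the list of further denervation genes described below. Genes of that list did not all stand high in this mouse. Hdac4 at 95.2 CPM, Mef2c at 181 CPM and Cdkn1a at 49.4 CPM were not the highest of the 16. The Chrna1 level of 12.4 CPM, Musk level of 39.2 CPM and Chrne level of 6.34 CPM in this mouse were not the highest either. Fibroblast markers summed to 1398 CPM in this mouse, the highest of all, and their part in these levels was not tested.

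The spread between mice differed by group. The SD of log2 CPM was lowest in the HFD group for 7 of the 8 members tested, all but Musk, as it was for 38.4% of all genes. Its median over the 8 members was 0.177 in HFD, 0.354 in control, 0.345 in HFD + metformin and 0.770 in HFD + RSV. Over all genes the medians were 0.181, 0.228, 0.280 and 0.200 in the same order.

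The 20 genes of the agrin, MuSK and neuregulin pathway and the synaptic scaffold, of which 19 were tested, held 1 gene that rose. It rose in HFD against control, where 1.32% of all genes were called higher and 1.11% lower. Rapsn, which codes for rapsyn, the scaffold that clusters the receptor, stood at 13.8, 11.3, 10.6 and 15.7 CPM in control and at 20.5, 21.4, 19.7 and 20.8 CPM in HFD. The groups did not overlap, with HFD higher, as was so for 8.83% of all genes, and for 18.3% in either direction. Rapsn rose by 0.68 ± 0.14 on the log2 scale in HFD against control (adjusted p = 0.0336). The adjusted p lay between 0.000493 and 0.0481 under 9 alternatives of method, and it was 0.05 or more in 6 of the 8 fits that left out 1 mouse, which are those without control mouse 2 or 3 or any of the HFD mice, up to 0.105. With resveratrol the level was 18.2, 20.0, 19.4 and 18.1 CPM and with metformin 17.4, 19.8, 12.1 and 17.5 CPM. Against HFD, the log2 differences were -0.12 and -0.30, with adjusted p-values of 0.999 and 0.618. The list's median log2 fold change was 0.12 in HFD against control, against -0.018 over all genes, and 4 of its 19 genes were higher and 0 lower at an unadjusted p under 0.05, against 11.7% and 12.5% of all genes. Beside Rapsn, edgeR without the metformin mice called Scn4a (0.60, adjusted p = 0.0203) and Agrn (-0.30, adjusted p = 0.0441) in this comparison. DESeq2 called Scn4a (0.61, adjusted p = 0.0135) and Lamb2 (0.31, adjusted p = 0.0335). Without the 2 libraries highest in adipocyte genes edgeR also called Scn4a (0.49, adjusted p = 0.0292). In the other 5 comparisons edgeR called 0 genes of the list in the fit of 16 mice, with medians from -0.088 to 0.095. At an unadjusted p under 0.05 there were 3, 2, 4, 2 and 3 of the 19 for HFD + RSV against HFD, HFD + metformin against HFD, HFD + RSV against control, HFD + metformin against control and HFD + RSV against HFD + metformin, against 4.72%, 8.02%, 15.8%, 9.50% and 4.68% of all genes. For HFD + RSV against control DESeq2 called Rapsn (0.57, adjusted p = 0.0152), and edgeR without the metformin mice called Rapsn (0.56, adjusted p = 0.0403) and Ache, the acetylcholinesterase gene (0.81, adjusted p = 0.0339).

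The list of 18 further genes of the denervation response held 17 that were tested. Of these 1 rose in HFD against control, where 1.32% of all genes were called higher and 1.11% lower. Mef2c, a myocyte transcription factor, stood at 136, 179.6, 82.0 and 181 CPM in control and at 421, 526, 541 and 340 CPM in HFD. It rose by 1.66 ± 0.27 on the log2 scale (adjusted p = 0.0149), with an adjusted p of at most 0.0466 whichever mouse was left out, and of 0.0903 and 0.0953 with limma on FPKM. Mef2c shares exons with a lncRNA of the deposited data, and reads of both cannot be told apart. The study lists that lncRNA as up in HFD and down with resveratrol, and its part in the Mef2c level was not tested. Mean FPKM of Mef2c was 56.4 in control and 107 in HFD. Of its 17 genes tested, 4 were higher and 5 lower in HFD than in control at an unadjusted p under 0.05, against 11.7% and 12.5% of all genes. The list did not move one way. The median log2 fold change was -0.25, against -0.018 over all genes. Beside Mef2c, the higher genes were Hdac4, a histone deacetylase that relays the loss of nerve activity to myogenin, at 0.69 ± 0.18, Myod1 at 0.82 ± 0.26 and Myh8 at 0.63 ± 0.24. The lower genes included Cdkn1a at -1.45 ± 0.41, Trim63, a ubiquitin ligase of muscle atrophy, at -0.85 ± 0.29, Myh3 at -1.90 ± 0.76 and Sln at -1.45 ± 0.54. The adjusted p of these 7 genes lay between 0.0542 and 0.148, and they are named here after their values had been seen. For HFD against control DESeq2 called 6 of the list and 1544 of all genes. The fits of 12 and of 8 mice called 4 each of the list, and 1616 and 998 of all genes. With limma 0 of the list were called, and 211 and 179 of all genes (pseudocounts 0.1 and 1).

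In the other 5 comparisons edgeR called 0 genes of the denervation list in the fit of 16 mice, while DESeq2 called some. At an unadjusted p under 0.05 edgeR had 1, 2, 5, 8 and 1 of the 17 in the order just given, against 4.72%, 8.02%, 15.8%, 9.50% and 4.68% of all genes. Of these 1, 2, 4, 7 and 0 were lower, and the list's median log2 fold changes were 0.086, -0.12, 0.068, -0.37 and 0.12. Of all genes, 4.15% were lower for HFD + metformin against control and 7.80% higher for HFD + RSV against control. Mef2c stood at 127, 205, 233 and 250.4 CPM in HFD + RSV, below all HFD mice, where 4.20% of all genes were apart in either direction. In HFD + metformin it stood at 393, 279, 259.7 and 238 CPM. HFD + RSV against HFD gave -1.17 ± 0.27 for Mef2c in edgeR (unadjusted p = 0.000558, adjusted p = 0.999) and an adjusted p of 0.0296 in DESeq2. DESeq2 also called Mef2c (1.02, adjusted p = 0.0276), Trim63 (-1.10, adjusted p = 0.0276) and Sln (-2.67, adjusted p = 0.0077) for HFD + metformin against control, and Trim63 (-0.998, adjusted p = 0.0296) for HFD + RSV against control. Their adjusted p in edgeR was 0.232, 0.236, 0.216 and 0.165 in the same order. Cdkn1a was called by edgeR for HFD + RSV against control without the metformin mice (adjusted p = 0.0107) and without the 2 libraries highest in adipocyte genes (adjusted p = 0.0443), and for HFD + metformin against control without those libraries (adjusted p = 0.0127).

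The genes whose log2 CPM followed a member most closely over the 16 mice, by Pearson's r with no test, were mostly not genes of the junction. Lrp4, the agrin receptor that acts with MuSK, came second for Chrna1 (r = 0.884) and first for Ncam1 (r = 0.859). Chrna1 was followed most closely by Rplp0, a ribosomal protein gene, at 0.902, and Chrne by Ufsp1 at 0.945 and Glo1 at 0.927. For Chrnb1 they were Bves at 0.906 and Exoc6 at 0.903, and for Chrnd the nearest was Fzd10 at 0.935, which had 0 to 1.74 CPM. Musk was nearest to Nek6 at 0.873 and Enox2 at 0.856. Ncam1 was second nearest to Mboat1 at 0.857, Runx1 was nearest to Cd109 at 0.876 and Ahnak2 at 0.864, and Myog to Nifk at 0.784 and Vcan at 0.745.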

How the data were processed

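Total RNA of 16 mice was sequenced on a NovaSeq after TruSeq library preparation. Per the submitters' processing notes and the study's methods, the authors trimmed reads with fastp, aligned them to GRCm38 with HISAT2 and estimated transcripts with StringTie. The deposited tables hold, per transcript and mouse, estimated counts (whole numbers) and FPKM. FPKM equalled count over length and the total of both tables (median deviation 0.0063%). Transcripts were named from GENCODE M21.

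Counts were summed per gene name in the mRNA table (82388 transcripts; 4 that were split over lines were joined). edgeR 4.0.16 (R 4.3.3, limma 3.58.1) tested them with filterByExpr (minimum count 10, total 15), TMM and a robust quasi-likelihood fit of 4 group means; log2 CPM used a prior count of 2. DESeq2 1.42.0 was an alternative, as were limma on log2 of the FPKM plus 0.1 or 1, other scalings, filters and sets of mice. Scripts were tested on simulated data. Permutation tests used SciPy and were two-sided. Nothing says that the mice were reared apart, so p-values measure the spread between these mice. The named genes were all members, list genes called (at most 4 per list and comparison), the 2 closest patterns per member and transcripts of at least 5% of their gene's count. Members and lists were chosen with earlier results of these data known. A few genes that these rules or lists hold are not reported here.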

Additional observations from a re-analysis of the deposited data

Results flagged for a closer look

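Runx1 in HFD + metformin mouse 1 stood at 8.20 CPM, apart from the 5.70 to 5.93 CPM of the other 3 mice of its group. A Dixon test of each member in each group of 4 mice on log2 CPM marked only this value among 36 groups, and chance marks about 1 in 20 groups.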

How the results depend on the processing

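The number of members called was 0 under each alternative run (RLE factors, no scaling factor, no filter, 12 mice, 8 mice, limma on FPKM, DESeq2, each mouse left out), and under the smaller set of alternatives run for the 4-group and transcript tests, except that the study's criterion called 1 member for HFD + metformin against control. Over 792 member values under an alternative the smallest adjusted p was 0.0796, for Chrne in HFD against control with 8 mice. In 49 of them the sign differed from the main value, which was at most 0.31 in size. For HFD against control Ncam1 was 0.0047 with RLE factors, 0.011 with no filter, 0.0028 with 8 mice and 0.0041 with DESeq2, and Chrnb1 -0.0056 and -0.0055 with limma (pseudocounts 0.1 and 1). With limma Runx1 was -0.14 and -0.055 for HFD + RSV against HFD, -0.021 and -0.0055 for HFD + metformin against HFD, and -0.12 and -0.050 for HFD + RSV against HFD + metformin (-0.016 with no scaling factor), where Musk was -0.018 and -0.0091. Chrnb1 for HFD + metformin against HFD was 0.081 and 0.074 with limma, 0.065 with no scaling factor and 0.076 without the 2 libraries highest in adipocyte genes, an alternative added after seeing the data. Chrnd for HFD + RSV against control was -0.063 with no scaling factor and -0.20 without those libraries. The cause of these sign changes was not tested.

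With 1 mouse left out, signs changed within these ranges: for HFD against control Chrnd -0.36 to 0.032 and Ncam1 -0.11 to 0.11; for HFD + RSV against HFD Chrnd -0.095 to 0.43, Runx1 -0.22 to 0.30 and the Chrng share -0.23 to 0.12 percentage points; for HFD + metformin against HFD Chrnb1 -0.17 to 0.075 and Runx1 -0.10 to 0.098; for HFD + RSV against control Chrna1 -0.049 to 0.55, Chrnd -0.22 to 0.31 and Myog -0.57 to 0.60; for HFD + metformin against control Chrnb1 -0.0013 to 0.24 and Chrne -0.029 to 0.42; for HFD + RSV against HFD + metformin Musk -0.18 to 0.39 and Runx1 -0.25 to 0.26.

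Counts of all genes called moved widely. For HFD against control they were 186 with no scaling factor, 158 with no filter, 1616 with 12 mice, 998 with 8 mice, 211 and 179 with limma, 1544 with DESeq2, 759 by the study's criterion and 16 to 773 with 1 mouse left out. By the study's criterion the other comparisons gave 166, 271, 418, 250 and 149, and by DESeq2 8, 31, 359, 141 and 10. HFD + RSV against HFD gave 0 to 1 with 1 mouse left out. HFD + metformin against HFD gave 1 with no scaling factor and with 8 mice, 0 with limma and without the adipocyte-rich libraries, and 0 to 2 with 1 mouse left out. HFD + RSV against control gave 0 with no scaling factor and limma, 231 with 12 mice, 53 without the adipocyte-rich libraries and 0 to 11 with 1 mouse left out. HFD + metformin against control gave 1 and 2 with limma, 38 without those libraries and 0 to 180 with 1 mouse left out, the highest without HFD + metformin mouse 3. No scaling factor moved the median log2 fold change of all genes to -0.18, 0.14 and -0.11 for HFD against control, HFD + metformin against HFD and HFD + RSV against control, and limma on FPKM to -0.16 and -0.11 in the first. No paired analysis was possible because no replicate numbers link mice of different groups. Chrng, at 0 to 23 counts per mouse, is limited by depth.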
